A study of Mus musculus with 18 samples.

Results

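EA1 and EA2 are mouse lung cancer lines driven by Eml4-Alk, and the comparison described here is how differently gene expression changed in each of them when the cells grew as lung tumors rather than in culture. For every gene, the change in vivo minus in vitro was calculated in each line on log2(FPKM + 1), where FPKM is a fragment count divided by transcript length and sequencing depth, and the change in EA2 was subtracted from the change in EA1. Of the 24269 genes with numeric values for both lines, the 10054 genes whose mean was 5 FPKM or more in at least 1 of the 4 groups were tested. At this limit, 423 genes had their highest group mean less than 1 FPKM above 5 FPKM and were kept, and 475 genes had it less than 1 FPKM below and were left out. The results center on the genes that moved in opposite directions, which are those with an adjusted p under 0.05 in each line and changes of opposite sign.

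RNA-seq was performed on 18 libraries: 5 of EA1 in vitro, 5 of EA1 in vivo, 3 of EA2 in vitro and 5 of EA2 in vivo. EA1 is described as p53 wild-type and EA2 as p53 null, and both were cultured in RPMI-1640 medium with fetal bovine serum. For the in vivo samples, each line was injected in the left lung of C57BL/6 hosts, adult males that express green fluorescent protein (GFP), tumors grew for 4 weeks according to the methods and 3 to 4 weeks according to the series record, and GFP-negative cells were sorted from pools of 3 to 5 mice. Host cells without detectable GFP would pass this sort, and in these bulk samples fewer cells of a type and less RNA per cell cannot be told apart. Each p53 status is represented by 1 line, the number of cells implanted differed between the lines and the table of each line was processed separately. The lines also differed in sex chromosome transcripts. Xist averaged 35.8 FPKM in EA1 cultures and 0.0124 FPKM in EA2 cultures, and the Y-linked Ddx3y 0.01 FPKM and 11.95 FPKM. All these properties cannot be told apart as sources of a difference between EA1 and EA2. The series record calls the replicates independent and gives no more detail on the cultures, so the p-values measure the spread between these libraries.

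Eml4-Alk is a constitutively active receptor tyrosine kinase fusion that signals through ERK, PI3K and STAT3 and is sufficient to drive lung adenocarcinoma in mice. In culture, serum and abundant nutrients favor continuous division, whereas a growing tumor exposes the same cells to matrix, fibroblasts, leukocytes and inflammatory signals such as interferon gamma and NF-kappaB-activating cytokines. NF-kappaB-dependent CXC chemokines attract neutrophils, IL-33 is a nuclear alarmin of barrier cells, and large chromatin and splicing complexes set the output of RNA polymerase II; members of all these groups were among the genes described below.

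The EA2 in vitro libraries stood apart from the others. Their FPKM values summed to 733184, 518260 and 717905 in libraries 1, 2 and 3, against 475434 to 569388 in the others, and their 100 most abundant genes held 40.0%, 28.4% and 38.3% of the sum. Relative to the mean of the in vivo libraries of the same line, genes with the shortest transcripts (67 to 1484 bases) lay at a median of 0.96, 0.27 and 0.82 in log2(FPKM + 1) in EA2 in vitro libraries 1, 2 and 3, and genes with the longest transcripts (6129 to 123179 bases) at −1.17, −0.37 and −0.84. In the EA1 in vitro libraries the same medians were −0.23 to −0.12 and 0.26 to 0.35. Short transcripts were therefore high and long transcripts low in the EA2 cultures, most in library 1 and least in library 2, so that replicates of this group differed from each other with length. For this reason the FPKM as deposited were accompanied by further fits, with the trend on transcript length removed from every library and with library 2 as the only EA2 in vitro library, whose spread is then assumed to be that of the other groups. Together with a median-of-ratios scaling of the libraries, these make 4 fits, and a gene is said below to move oppositely in all 4 fits where its call was kept in each of them. This criterion was chosen after the data were seen.

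The response to tumor growth differed between the lines for 6695 of the 10054 genes. The change was higher in EA1 for 2771 genes (27.6%) and higher in EA2 for 3924 genes (39.0%). In EA1, 2295 genes (22.8%) rose in vivo and 3289 (32.7%) fell. In EA2, 3986 genes (39.6%) rose and 3012 (30.0%) fell. The same direction was called in both lines for 1222 genes that rose and 1242 that fell. Opposite directions were called for 1243 genes: 280 (2.78%) went up in EA1 tumors and down in EA2 tumors, and 963 (9.58%) went down in EA1 tumors and up in EA2 tumors. The median changes were 0.60 in EA1 and −0.86 in EA2 for the first set and −0.61 and 0.82 for the second, against −0.10 and 0.16 over all genes tested. A change beyond 1 on the log2 scale in each line was reached by 34 genes (0.338%) that rose in EA1 and fell in EA2 and by 31 (0.308%) with the opposite pattern. With the libraries scaled by the median of ratios, which moves the median change of all genes to 0.00 in both lines, the split was 457 and 648 genes in place of 280 and 963, and the change was higher in EA1 for 3555 genes and in EA2 for 3060. Without EA2 in vitro library 2, the genes that rose in EA1 and fell in EA2 were 523 and the genes that fell in EA1 and rose in EA2 were 1690.

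**Figure D1:**
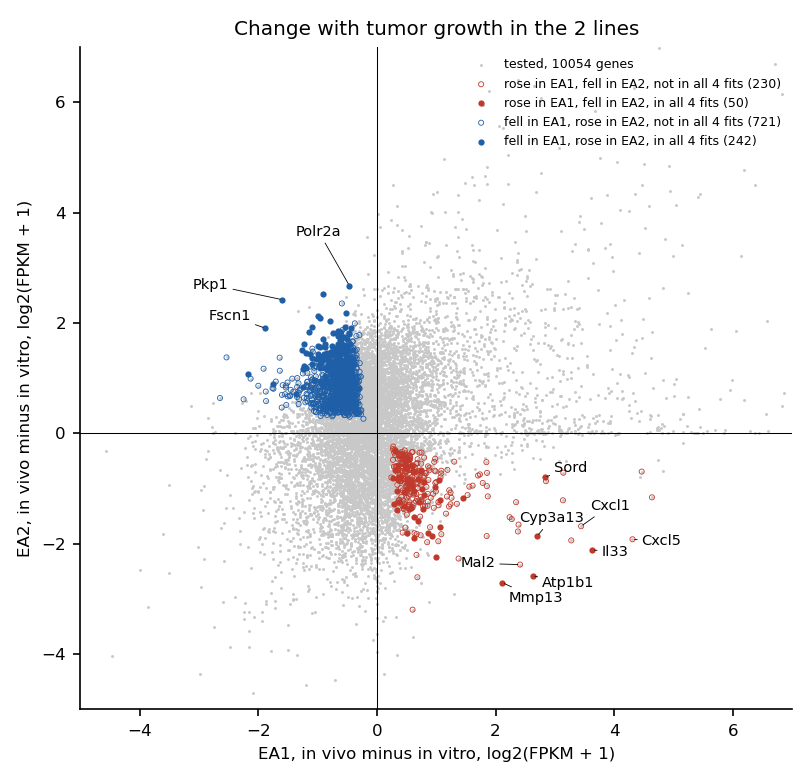
Change in vivo minus in vitro in EA1 (x axis) and in EA2 (y axis), both on log2(FPKM + 1), for the genes tested, 1 point per gene. Genes that moved in opposite directions are colored, and the 963 that fell in EA1 and rose in EA2 outnumber the 280 that rose in EA1 and fell in EA2; 14 genes lie outside the axes.

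Transcript length differed between the 2 sets of opposite genes. The genes that rose in EA1 and fell in EA2 had a median transcript length of 1843 bases (quartiles 1224 and 2856), those with the opposite pattern 4889 bases (3630 and 6961), and all genes tested 3293 bases (2107 and 4697). When the 10007 genes with a known length were split into 8 classes, the shortest class held 100 genes that rose in EA1 and fell in EA2 and 11 with the opposite pattern, and the longest class held 2 and 325. The median change in EA2 went from −0.73 in the shortest class to 0.80 in the longest, and that in EA1 from 0.15 to −0.32. With EA2 in vitro library 2 alone, the EA2 medians were −0.28 and 0.37. The part of the library-wide length trend in the individual calls was not tested gene by gene, and the 4 fits below give the values with it and without it.

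**Figure D2:**
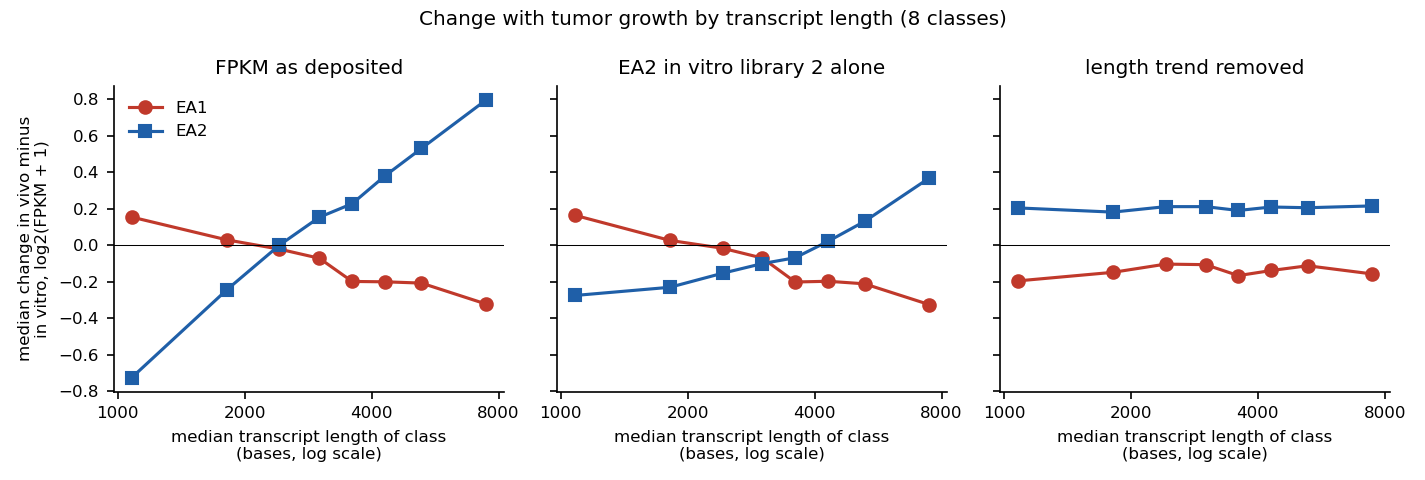
Genes divided into 8 classes by transcript length (x axis, bases), with the median change on log2(FPKM + 1) in EA1 and EA2 in each class, for the FPKM as deposited, with the length trend removed and with EA2 in vitro library 2 alone. The EA2 median rose with length from −0.73 to 0.80 as deposited and from −0.28 to 0.37 with library 2 alone, and lay between 0.18 and 0.22 in every class after the trend was removed.

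After removal of the length trend, 157 genes (1.56%) rose in EA1 with a fall in EA2 and 775 (7.71%) did the opposite. Of these, 115 and 595 were also called in the FPKM as deposited. With library 2 as the only EA2 in vitro library, the counts were 233 (2.34%) and 509 (5.1%) of 9978 genes. In all 4 fits, 50 genes (0.497%) went up in EA1 and down in EA2, with a median transcript length of 2999 bases, and 242 genes (2.41%) went down in EA1 and up in EA2, with a median of 5111 bases. The in vivo and in vitro libraries did not overlap in either line for 128 (1.27%) of the genes that rose in EA1 and fell in EA2 and for 427 (4.25%) of those with the opposite pattern. In every alternative in which they were tested, 23 and 221 genes respectively were called opposite.

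Among the genes that rose in EA1 tumors and fell in EA2 tumors, Atp1b1 ranked first by the smaller of its changes in the 2 lines among genes without overlap. Atp1b1 encodes the beta 1 subunit of the sodium-potassium pump and lies on chromosome 1 at 164437099 to 164458355 (GRCm38.p6). In EA1 it was measured at 9.51, 6.58, 5.85, 9.12 and 9.70 FPKM in vitro and at 79.0, 58.2, 56.4, 28.5 and 66.1 FPKM in vivo. In EA2 it was 17.1, 45.3 and 13.4 FPKM in vitro and 4.16, 2.41, 3.08, 2.57 and 2.19 FPKM in vivo. Every EA1 tumor library was thus above every EA1 culture, and every EA2 tumor library below every EA2 culture. The changes were 2.63 ± 0.28 and −2.59 ± 0.33 on the log2 scale (SE), and their difference was 5.22 ± 0.43 (limma, adjusted p = 9.61e-08). The call was kept in all 29 alternatives. Cyp3a13, a cytochrome P450 of drug and steroid oxidation, went from 2.16, 2.82, 4.16, 3.45 and 3.78 to 43.0, 32.6, 33.3, 10.1 and 26.6 FPKM in EA1. In EA2 it fell from 4.74, 2.56 and 3.80 FPKM to 0.103, 0.297, 0.0700, 0.530 and 0.395 FPKM. Neither line showed any overlap between tumors and cultures, and the difference in change was 4.57 ± 0.42 (limma, adjusted p = 2.63e-07).

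Il33, the alarmin released by damaged epithelial and endothelial cells, had the largest change in EA1 of the 50 genes called in all 4 fits. It was 10.6, 10.9, 9.81, 6.68 and 9.36 FPKM in the EA1 cultures and 153, 108, 104, 148 and 132 FPKM in the EA1 tumors. In EA2 it was 85.9, 89.7 and 26.8 FPKM in culture and 18.5, 11.2, 34.5, 17.1 and 2.42 FPKM in tumors. The EA1 libraries were fully separated, whereas in EA2 culture 3 lay below tumor 3. The changes were 3.63 ± 0.44 and −2.12 ± 0.51, with a difference of 5.75 ± 0.68 (limma, adjusted p = 2.69e-06). Mmp13, a collagenase that cleaves fibrillar collagens, was 1.52, 1.29, 2.82, 2.03 and 1.41 FPKM in EA1 cultures and 9.17, 9.28, 20.01, 6.64 and 13.8 FPKM in EA1 tumors. EA2 cultures held 213, 374 and 272 FPKM and EA2 tumors 20.5, 60.2, 266, 72.6 and 4.55 FPKM. EA2 tumor 3 was within the range of the cultures and the other EA2 tumors were below it, and the difference in change was 4.83 ± 1.00 (limma, adjusted p = 0.00044). The calls of Il33 and Mmp13 were lost when each group received a weight by its own spread.

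The CXC chemokines Cxcl1, Cxcl3 and Cxcl5, ligands of the neutrophil receptor CXCR2, shared the pattern and lie on chromosome 5 between 90759298 and 90893121 (GRCm38.p6). Of the 22 cytokine and chemokine genes tested, 6 rose in EA1 and fell in EA2 and none did the reverse, against 2.78% and 9.58% of all genes, with medians of 0.45 and −0.42. With EA2 culture 2 alone, 2 of them rose in EA1 and fell in EA2, and the EA2 median was 0.16. Cxcl1 was 2.49, 3.17, 2.94, 4.16 and 3.25 FPKM in EA1 cultures and 26.4, 42.1, 31.0, 43.2 and 114 FPKM in EA1 tumors. In EA2 it was 46.5, 23.5 and 76.0 FPKM in cultures and 15.98, 14.8, 9.16, 10.98 and 15.0 FPKM in tumors, so that the groups of neither line overlapped. Its changes were 3.44 ± 0.32 in EA1 and −1.69 ± 0.37 in EA2 (difference 5.13 ± 0.49, limma, adjusted p = 3.74e-07). Cxcl5 rose from 0.733, 0.990, 0.249, 0.817 and 0.812 FPKM to 29.9, 46.8, 49.4, 11.3 and 46.8 FPKM in EA1. EA2 cultures had 127, 52.0 and 179.8 FPKM and EA2 tumors 62.9, 41.3, 40.5, 25.9 and 4.94 FPKM, where tumor 1 lay above culture 2, and its opposite call was lost without EA2 culture 3. Cxcl3 was under 0.2 FPKM in every EA1 culture, 1.89–5.88 FPKM in EA1 tumors, 6.04–9.55 FPKM in EA2 cultures and at most 5.62 FPKM in EA2 tumors, with tumor 5 listed at 0. With library 2 as the only EA2 culture, the change in EA2 was −0.82 for Cxcl1 (adjusted p = 0.2), −1.24 for Cxcl3 (adjusted p = 0.169) and −0.91 for Cxcl5 (adjusted p = 0.437) and did not pass the test, while the difference between the lines had the same sign in every alternative.

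Because these chemokines and Mmp13 are textbook targets of NF-kappaB and AP-1, the proximal promoters of the 3 of these genes in which the motif was found are shown, as the 150 bases upstream of the annotated start on the plus strand (RefSeq, GRCm38.p6), with the motif in capitals. Cxcl1 is read at chr5:90891095-90891244 and Cxcl3 at chr5:90785951-90786100, where the capitals mark a match to the NF-kappaB motif GGAANTTCC that begins 70 and 72 bases before the start, and Mmp13 at chr9:7272364-7272513, where they mark the AP-1 motif TGACTCA that begins 35 bases before the start.
Cxcl1: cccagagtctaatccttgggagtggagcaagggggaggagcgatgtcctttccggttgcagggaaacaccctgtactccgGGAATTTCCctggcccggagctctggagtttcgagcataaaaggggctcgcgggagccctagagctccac
Cxcl3: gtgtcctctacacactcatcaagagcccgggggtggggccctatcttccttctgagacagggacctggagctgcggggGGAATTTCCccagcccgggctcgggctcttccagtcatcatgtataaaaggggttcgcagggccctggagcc
Mmp13: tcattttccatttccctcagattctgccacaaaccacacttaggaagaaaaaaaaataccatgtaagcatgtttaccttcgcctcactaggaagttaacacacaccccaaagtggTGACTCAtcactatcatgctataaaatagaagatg
Over the 8016 tested genes with a RefSeq promoter of 250 bases before to 50 bases after the start, GGAANTTCC was found on either strand in 96 (1.2%) and TGACTCA in 305 (3.8%). Among the genes that rose in EA1 and fell in EA2, 3 of 238 (1.26%) held the first and 8 of 238 (3.36%) the second, and among those with the opposite pattern 4 of 784 (0.51%) and 18 of 784 (2.3%). For the genes called in all 4 fits, GGAANTTCC was in 1 of 49 promoters (2.04%) of those that rose in EA1 and in 1 of 203 (0.493%) of those that fell, and TGACTCA was in 5 of 49 (10.2%) and 3 of 203 (1.48%). The matches describe the sequence and were not tested as binding sites.

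Mal2, a protein of apical membrane transport in epithelial cells, was 5.76, 6.55, 6.45, 7.52 and 7.55 FPKM in EA1 cultures and 38.8, 64.6, 65.9, 13.3 and 46.8 FPKM in EA1 tumors. The EA2 libraries held 48.9, 68.3 and 61.3 FPKM in culture and 16.6, 19.9, 31.4, 10.3 and 0.501 FPKM in tumors, with no overlap in either line (difference 4.80 ± 0.89, limma, adjusted p = 0.000176). EA2 tumor 5 was the lowest of these libraries, and with EA2 culture 2 alone the change in EA2 of −2.59 did not pass the test (adjusted p = 0.0659). Serpind1, the heparin-dependent thrombin inhibitor heparin cofactor II, was at most 0.123 FPKM in EA1 cultures and 0.324–3.04 FPKM in EA1 tumors, against 7.45–31.9 FPKM in EA2 cultures and 1.36–4.96 FPKM in EA2 tumors. Cdc42ep3, an effector of the small GTPase Cdc42, was under 1.1 FPKM in EA1 cultures and 3.08–15.9 FPKM in EA1 tumors, where tumor 4 was the highest, and it went from 3.25–11.03 to 0.250–1.78 FPKM in EA2. Shroom3, which drives apical constriction of epithelial cells, went from 2.52–3.34 to 4.37–12.1 FPKM in EA1 and from 2.04–3.44 to 0.233–1.06 FPKM in EA2. All 3 had separate libraries in each line, and their EA2 changes of −1.10, −1.07 and −0.82 with culture 2 alone did not pass the test (adjusted p = 0.0712, 0.129 and 0.0674).

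The next genes likewise rose in EA1 and fell in EA2. Slc31a2, a low-affinity copper transporter, was 3.43, 3.15, 2.36, 3.15 and 3.79 FPKM in EA1 cultures and 7.15, 7.99, 6.60, 8.79 and 7.69 FPKM in EA1 tumors. It was 9.001, 7.38 and 7.81 FPKM in EA2 cultures and 3.04, 3.76, 2.96, 2.63 and 2.34 FPKM in EA2 tumors. The lines had separate groups and nearly mirrored changes of 1.06 ± 0.13 and −1.20 ± 0.14 (difference 2.26 ± 0.19, limma, adjusted p = 1.19e-07). Trim15, a RING-finger protein of focal adhesions, rose from 1.64–3.03 to 3.55–12.7 FPKM in EA1 and fell from 0.931–3.2 to 0.127–0.425 FPKM in EA2. The following 3 genes were chosen after their values were seen. Rad51b, a protein of homologous recombination, was 2.17, 2.30, 2.63, 2.16 and 2.40 FPKM in EA1 cultures and 5.37, 6.71, 6.48, 3.16 and 7.34 FPKM in EA1 tumors. EA2 cultures had 64.4, 33.6 and 62.5 FPKM and EA2 tumors 8.63, 10.2, 14.3, 7.81 and 10.4 FPKM, so that the gene was higher in every EA2 library than in any EA1 library in files that were processed separately. Its difference in change was 3.24 ± 0.30 (limma, adjusted p = 3.13e-07). Skap2, an adaptor of Src-family kinases, had changes of 0.98 ± 0.12 and −0.98 ± 0.14, and Sord, sorbitol dehydrogenase of the polyol pathway, of 2.83 ± 0.19 and −0.80 ± 0.22.

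Of 21 TNF and NF-kappaB targets and 24 Wnt and Notch genes tested, 1 each rose in EA1 and fell in EA2, near the 2.78% of all genes. Both were among the 50 genes called in all 4 fits. Of the TNF and NF-kappaB targets, 11 rose in EA1 and 11 rose in EA2. Nfkbiz, the atypical inhibitor that co-activates NF-kappaB target genes, was 13.6, 20.6, 20.4, 30.9 and 23.6 FPKM in EA1 cultures and 24.1, 50.1, 26.2, 26.8 and 57.7 FPKM in EA1 tumors. The EA2 libraries held 37.9, 22.1 and 25.8 FPKM in culture and 7.69, 9.87, 7.10, 6.78 and 12.8 FPKM in tumors. The EA2 groups were separate and the EA1 groups overlapped, with changes of −1.59 ± 0.30 and 0.69 ± 0.26. Wnt7a, a secreted Wnt ligand of lung epithelium, was 2.22, 1.52, 1.17, 1.94 and 1.60 FPKM in EA1 cultures and 4.98, 7.31, 6.63, 1.21 and 5.22 FPKM in EA1 tumors, with tumor 4 among the cultures. EA2 cultures had 1.79, 9.26 and 0.242 FPKM, and every EA2 tumor was at 0.0236 FPKM or lower, so that the groups were separate although the cultures spanned a wide range. Neu1, the lysosomal sialidase, had changes of 0.63 ± 0.21 in EA1 and −1.05 ± 0.25 in EA2, and Mrpl23, a mitochondrial ribosomal protein, of 0.28 ± 0.11 and −0.81 ± 0.13. The opposite call was kept in 22 of 29 alternatives for Nfkbiz, 13 of 25 for Wnt7a, 25 of 28 for Neu1 and 16 of 29 for Mrpl23. Leaving out 1 library was enough to lose it for 5 of the 18 libraries for Nfkbiz, 7 for Wnt7a, 2 for Neu1 and 12 for Mrpl23.

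In the opposite direction, Fscn1 ranked first by the smaller of its changes in the 2 lines among genes without overlap. Fscn1 encodes fascin, the protein that bundles actin filaments in filopodia, and lies on chromosome 5 at 142960355 to 142973189 (GRCm38.p6). It was 277, 209, 158, 199 and 199 FPKM in EA1 cultures and 50.4, 42.7, 49.5, 95.9 and 47.8 FPKM in EA1 tumors. EA2 cultures had 51.4, 120.1 and 67.4 FPKM and EA2 tumors 306, 250.1, 249, 296 and 319 FPKM. No library of the tumors overlapped with the cultures in either line, and EA1 tumor 4 was the highest of its group. The changes were −1.89 ± 0.22 in EA1 and 1.91 ± 0.26 in EA2, with a difference of −3.79 ± 0.34 (limma, adjusted p = 2.26e-07), and the call was kept in all 29 alternatives. With the length trend removed they were −1.95 and 2.05.

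Larp1, an RNA-binding protein that controls translation of ribosomal protein mRNAs downstream of mTORC1, was 53.8, 66.6, 69.6, 66.3 and 63.8 FPKM in EA1 cultures and 25.3, 26.5, 25.03, 28.3 and 24.6 FPKM in EA1 tumors. For EA2 the values were 14.2, 27.9 and 19.9 FPKM in culture and 62.4, 59.3, 60.8, 58.6 and 52.8 FPKM in tumors. The groups were separate in both lines (difference −2.78 ± 0.20, limma, adjusted p = 2.91e-08). Cad, the multifunctional enzyme that starts pyrimidine synthesis, was 43.6, 41.7, 39.6, 40.6 and 34.1 FPKM in EA1 cultures and 19.1, 16.7, 17.5, 14.01 and 15.1 FPKM in EA1 tumors. It was 4.03, 12.5 and 6.66 FPKM in EA2 cultures and 29.3, 23.4, 26.8, 19.2 and 20.6 FPKM in EA2 tumors. The groups again did not overlap (difference −2.84 ± 0.29, limma, adjusted p = 7.68e-07). Utp20, a component of the small-subunit processome that matures 18S ribosomal RNA, fell from 15.5–19.4 to 7.04–8.57 FPKM in EA1 and rose from 3.22–8.58 to 12.9–16.6 FPKM in EA2.

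Pkp1 and Mpdz encode proteins of cell contacts. Pkp1, a plakophilin of desmosomes, was 30.9, 38.1, 43.6, 34.4 and 37.5 FPKM in EA1 cultures and 5.89, 10.7, 10.3, 21.4 and 13.4 FPKM in EA1 tumors. EA2 cultures had 1.32, 1.44 and 4.16 FPKM and EA2 tumors 12.5, 3.90, 8.25, 33.1 and 57.6 FPKM, where tumor 2 lay below culture 3. The difference was −4.02 ± 0.75 (limma, adjusted p = 0.000171). Mpdz, a multi-PDZ scaffold of tight junctions, fell from 2.90–4.07 to 0.590–1.95 FPKM in EA1 and rose from 1.503–3.54 to 6.11–7.92 FPKM in EA2.

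**Figure D3:**
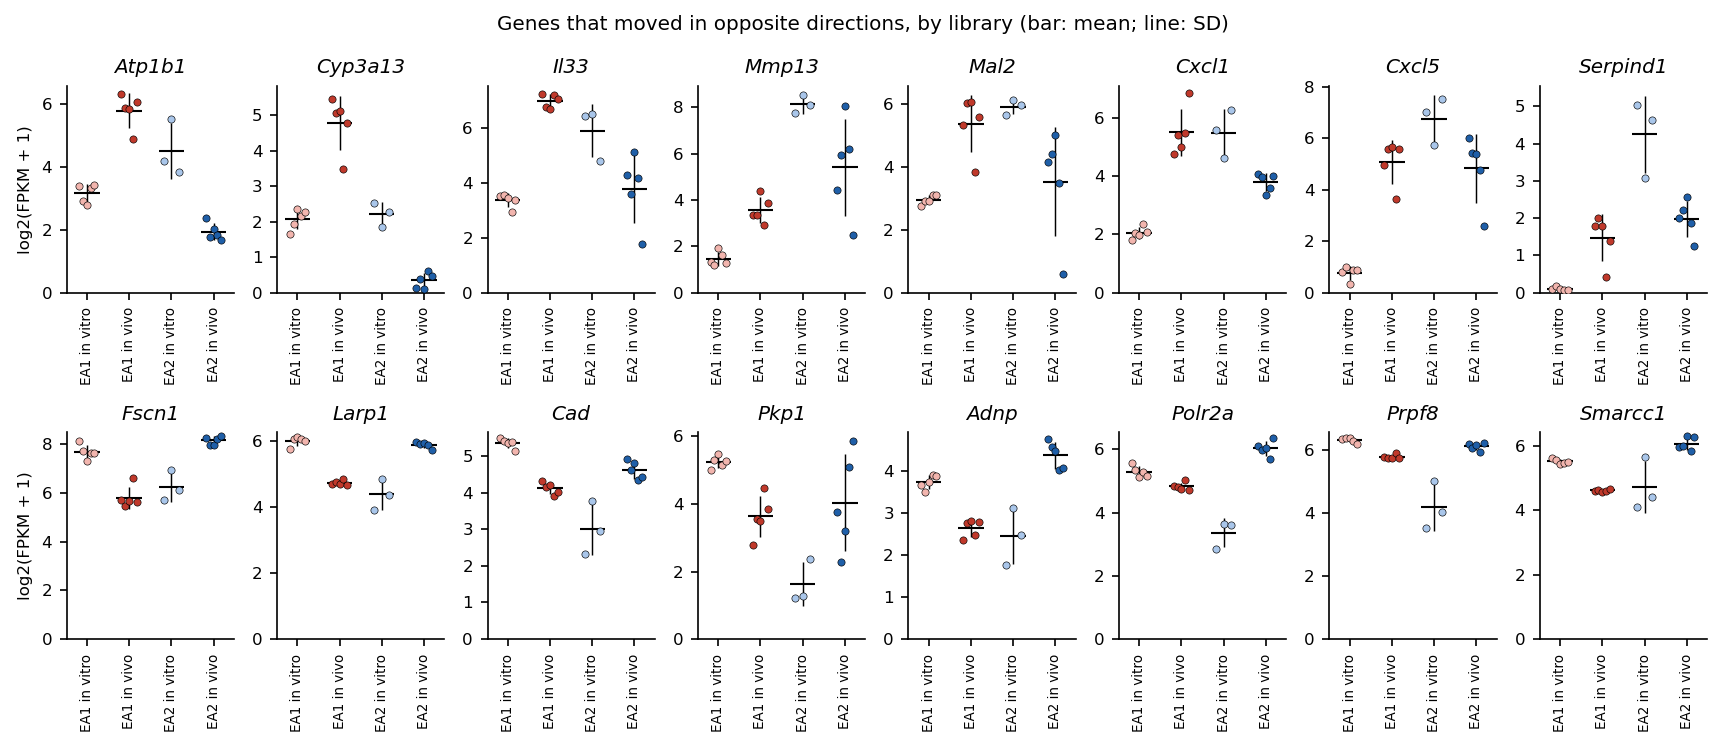
Level of 16 genes in every library on log2(FPKM + 1), with 1 point per library, a bar at the group mean and a line for the SD, for EA1 and EA2 in vitro and in vivo. The upper genes, such as Atp1b1 and Il33, were higher in EA1 tumors and lower in EA2 tumors than in culture, and the lower genes, such as Fscn1 and Larp1, showed the reverse.

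Myh9, the heavy chain of nonmuscle myosin IIA, was 195, 208, 202, 181 and 183 FPKM in EA1 cultures and 84.3, 112, 106, 104 and 111 FPKM in EA1 tumors. EA2 cultures had 38.1, 89.0 and 52.6 FPKM and EA2 tumors 167, 139, 157, 221 and 280.1 FPKM, so that the groups were separate in both lines (difference −2.62 ± 0.30, limma, adjusted p = 2.36e-06). Fbln2, a matrix glycoprotein of elastic fibers, was 499, 527, 555, 418 and 473 FPKM in EA1 cultures and 262, 166, 174, 552 and 239.5 FPKM in EA1 tumors. In EA1 tumor 4 it was as high as in the cultures, and the EA2 groups of 46.2–123 FPKM in culture and 198–385 FPKM in tumors were separate (difference −3.05 ± 0.45). Dusp4, a phosphatase induced by ERK that dampens MAP kinase signaling, was 59.6, 53.4, 53.8, 62.9 and 57.3 FPKM in EA1 cultures and 32.6, 36.5, 41.3, 30.4 and 40.3 FPKM in EA1 tumors. EA2 cultures had 12.2, 27.8 and 13.7 FPKM and EA2 tumors 69.5, 39.0, 45.1, 89.3 and 94.2 FPKM, again without overlap (difference −2.52 ± 0.35, limma, adjusted p = 1.37e-05). Srebf1, the transcription factor of fatty acid synthesis, fell from 59.6–79.4 to 43.2–52.2 FPKM in EA1 and rose from 11.03–23.7 to 33.0–40.9 FPKM in EA2 (difference −1.73 ± 0.23).

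Several genes that fell in EA1 and rose in EA2 encode large nuclear proteins. Adnp, a zinc-finger and homeobox protein of the ChAHP chromatin complex, was 11.8, 10.3, 12.3, 14.2 and 13.7 FPKM in EA1 cultures and 4.12, 5.83, 6.03, 4.62 and 5.90 FPKM in EA1 tumors. The EA2 libraries held 2.40, 7.66 and 4.58 FPKM in culture and 26.4, 22.8, 21.3, 15.3 and 15.9 FPKM in tumors. The groups were separate in both lines (difference −3.03 ± 0.31, limma, adjusted p = 6.45e-07). Polr2a, the largest subunit of RNA polymerase II, and Prpf8, the core protein of the spliceosome, were chosen after their values were seen. Polr2a was 46.6, 40.0, 33.6, 37.7 and 35.05 FPKM in EA1 cultures and 27.9, 27.0, 25.9, 31.6 and 25.4 FPKM in EA1 tumors. EA2 cultures had 6.14, 11.52 and 11.1 FPKM and EA2 tumors 68.0, 62.3, 64.8, 50.9 and 81.0 FPKM. The rise in EA2 of 2.68 ± 0.18 exceeded the fall in EA1 of −0.47 ± 0.15, and it was 2.196 with the length trend removed and 2.39 with EA2 culture 2 alone. Prpf8 changed by −0.54 ± 0.18 in EA1 and 1.92 ± 0.21 in EA2, without overlap between cultures and tumors in either line.

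Of the 41 chromatin regulators tested, 28 fell and 1 rose in EA1, while 32 rose and 2 fell in EA2, and 21 moved oppositely, against 9.58% of all genes. The median changes of the list were −0.55 in EA1 and 1.00 in EA2, and its median transcript length was 8443 bases against 3293 for all genes tested. The list was chosen with earlier results of these data known and holds long transcripts by its definition. With the length trend removed, 24 fell and 3 rose in EA1, 23 rose and 4 fell in EA2, and the medians were −0.41 and 0.40. In that fit 11 fell in EA1 and rose in EA2, against 7.71% of all genes, and 1 did the reverse, against 1.56%. In all 4 fits, 10 members fell in EA1 and rose in EA2. Among them were the remodeling ATPases Chd3 and Smarca4, the SWI/SNF subunits Smarcc1 and Arid1a, Bptf of the NURF remodeler, the histone H3 methyltransferases Setd2 and Setd1a, and the deacetylases Hdac4 and Hdac7. Smarcc1 was 48.4, 45.9, 41.7, 42.6 and 43.9 FPKM in EA1 cultures and 23.2, 23.5, 22.8, 23.3 and 24.3 FPKM in EA1 tumors, and 16.1, 48.8 and 20.3 FPKM in EA2 cultures and 60.6, 61.8, 77.0, 56.4 and 75.7 FPKM in EA2 tumors. EA2 culture 2 was the culture nearest to the tumors, and the groups did not overlap (difference −2.24 ± 0.30, limma, adjusted p = 8.68e-06). Changes in Arid1a were −0.63 ± 0.11 and 1.54 ± 0.13. Uhrf1, which recruits the maintenance DNA methyltransferase, moved oppositely as deposited (difference −2.64 ± 0.35), but its EA2 change with culture 2 alone was 0.16 (adjusted p = 0.683), and the call was lost without EA2 culture 1.

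Of the 53 genes of the spliceosome and mRNA export, 42 fell in EA1 and none rose, against 32.7% and 22.8% of all genes. In EA2, 18 rose and 20 fell, near the 39.6% and 30.0% of all genes, and 15 moved oppositely, all of them down in EA1, against 9.58% of all genes. The medians were −0.60 and −0.05. The 6 called in all 4 fits were Prpf8, the hnRNP proteins Hnrnpu and Hnrnpm, the paraspeckle protein Sfpq, Snrnp70 of the U1 particle and Sf3b4 of the U2 particle. Hnrnpm was 160.3, 163, 155, 163 and 166 FPKM in EA1 cultures and 82.9, 83.2, 75.7, 87.9 and 88.0 FPKM in EA1 tumors, and 42.1, 104 and 40.5 FPKM in EA2 cultures and 148, 129, 129, 120.4 and 175 FPKM in EA2 tumors. Culture 2 of EA2 stood close to the EA2 tumors and the other cultures at less than 50 FPKM (difference −2.24 ± 0.29, limma, adjusted p = 6.15e-06). Hnrnpu showed the same order, with changes of −0.95 ± 0.20 and 1.30 ± 0.23.

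**Figure D4:**
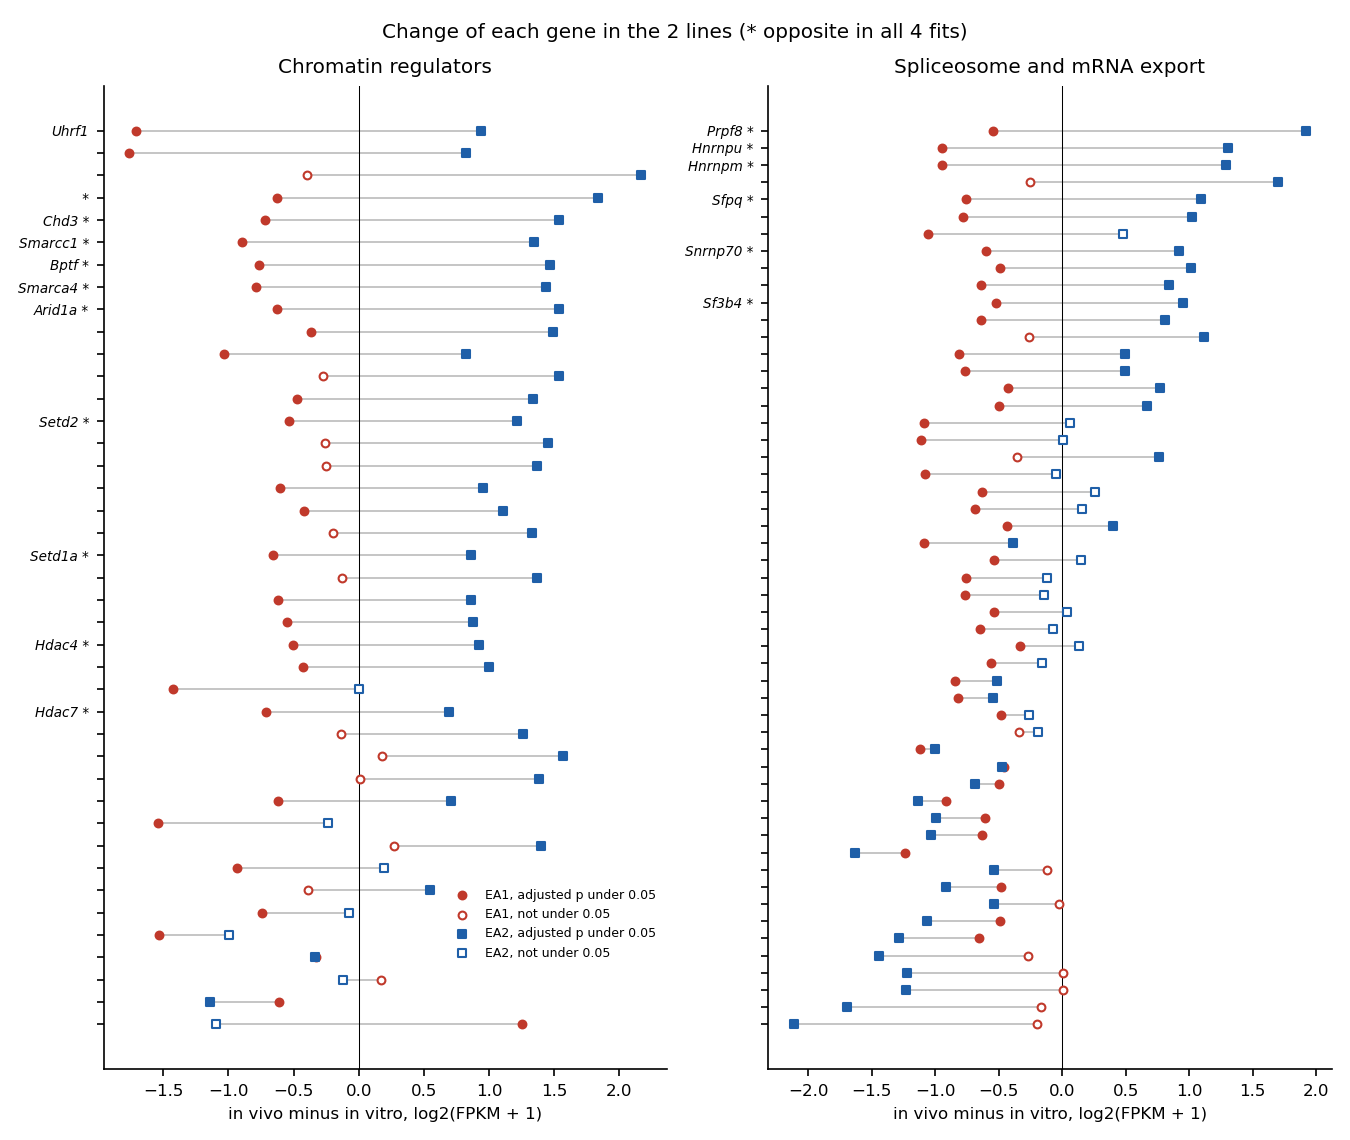
Change in vivo minus in vitro on log2(FPKM + 1) in EA1 and EA2 for each of the 41 chromatin regulators and 53 spliceosome and mRNA export genes tested, with an asterisk at the genes that moved oppositely in all 4 fits and labels at genes named in the text. The chromatin regulators lay mostly below 0 in EA1 and above 0 in EA2, and the spliceosome genes lay mostly below 0 in EA1 and on both sides of 0 in EA2.

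Genes of cell division fell in EA1 and had higher changes in EA2 for part of their members. Of 41 DNA replication genes, 40 fell in EA1 and none rose, against 32.7% and 22.8% of all genes. Their median was −1.27, and 24 had the lower change in EA1, against 39.0% of all genes. In EA2, 20 fell and 9 rose, against 30.0% and 39.6% of all genes, with a median of −0.29. The 9 that rose were those called opposite, against 9.58% of all genes. Among them were Mcm4 of the replicative helicase, DNA ligase Lig1 and the clamp loader subunit Rfc1. Lig1 was 52.1, 49.0, 37.7, 46.5 and 45.8 FPKM in EA1 cultures and 16.1, 14.5, 13.6, 17.9 and 14.4 FPKM in EA1 tumors, and 5.91, 16.3 and 10.3 FPKM in EA2 cultures and 21.4, 18.7, 20.2, 16.4 and 19.1 FPKM in EA2 tumors. Culture 2 of EA2 was within 0.2 FPKM of the lowest EA2 tumor, and with that culture alone none of the 9 moved oppositely. Of 40 mitosis and spindle genes, all fell in EA1, 21 fell in EA2 and 24 had the lower change in EA1. The shares of all genes were 32.7%, 30.0% and 39.0%. The medians of the mitosis and spindle genes were −1.58 in EA1 and −0.57 in EA2. With EA2 culture 2 alone their EA2 median was −1.055. Their median difference was −0.92 as deposited and −0.41 with that culture alone. Mki67, the proliferation marker, was 39.0, 41.5, 28.0, 37.9 and 34.4 FPKM in EA1 cultures and 7.30, 10.4, 8.57, 10.0 and 9.22 FPKM in EA1 tumors. Its EA2 values of 1.65, 5.29 and 8.68 FPKM in cultures and 9.17, 7.31, 9.72, 6.83 and 8.21 FPKM in tumors overlapped, and its EA2 change of 0.76 ± 0.27 became 0.07 after removal of the length trend.

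Most genes of a joint list of MYC targets and ribosome biogenesis, and most DNA repair genes, fell in EA1, against 32.7% of all genes. In EA2 the members of these lists were called in both directions, against 39.6% of all genes that rose and 30.0% that fell. Of 34 MYC target and ribosome biogenesis genes, 32 fell in EA1, 9 rose and 13 fell in EA2, and 9 moved oppositely, against 9.58% of all genes. These were the nucleolar proteins Ncl, Gar1, Pes1, Utp20 and Noc4l, the RNA polymerase I subunits Polr1a and Polr1b, Cad and the chaperonin Hspd1, and Utp20, Polr1a and Cad were called in all 4 fits. The medians were −1.10 and −0.08. That of EA2 was 0.11 with the length trend removed and −0.66 with EA2 culture 2 alone. Of 38 DNA repair genes, 34 fell in EA1, 13 rose and 12 fell in EA2, and 10 moved oppositely, including the mismatch repair genes Msh3 and Msh6 and the strand-break sensor Parp1. Only Fancg of the Fanconi core complex was called in all 4 fits. Parp1 was 41.9, 35.5, 28.1, 34.7 and 32.0 FPKM in EA1 cultures, 18.9, 18.4, 17.3, 15.0 and 18.3 FPKM in EA1 tumors, 10.5, 37.5 and 14.8 FPKM in EA2 cultures and 43.2, 43.0, 50.7, 27.0 and 35.01 FPKM in EA2 tumors. EA2 culture 2 lay among the EA2 tumors, and with that culture alone the change was 0.05 (adjusted p = 0.893).

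Ribosomal proteins and respiratory chain subunits, whose transcripts are short, mostly fell in EA2 in the FPKM as deposited, where 30.0% of all genes fell. Of 48 cytosolic ribosomal protein genes, 12 rose and 1 fell in EA1, 1 rose and 39 fell in EA2, and 7 rose in EA1 and fell in EA2, against 2.78% of all genes. The medians were 0.27 and −0.91, with a median transcript length of 1108 bases. With the length trend removed, 1 rose and 2 fell in EA1, 15 rose and 16 fell in EA2, and both medians were −0.06. Rps21 of the small ribosomal subunit was 996, 949.5, 924, 1115 and 1068 FPKM in EA1 cultures, 1536, 1543, 1772, 1466 and 1666 FPKM in EA1 tumors, 2279, 724 and 2361 FPKM in EA2 cultures and 767, 748, 787, 897 and 532 FPKM in EA2 tumors. EA2 culture 2 was among the EA2 tumors, the other cultures were far above them, and the difference of 1.76 ± 0.36 became −0.29 with the length trend removed. Ribosomal protein genes have many near-identical processed pseudogenes, so their values are uncertain. Of 61 respiratory chain genes, 46 fell and 3 rose in EA2, 5 rose and 3 fell in EA1, and 2 rose in EA1 and fell in EA2. Their medians of −0.96 in EA2 and 0.13 in EA1 became 0.03 and −0.19 with the length trend removed. Among 40 mitochondrial ribosomal protein genes, 32 fell in EA2 and 12 in EA1, and Mrpl23 alone moved oppositely in all 4 fits.

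**Figure D5:**
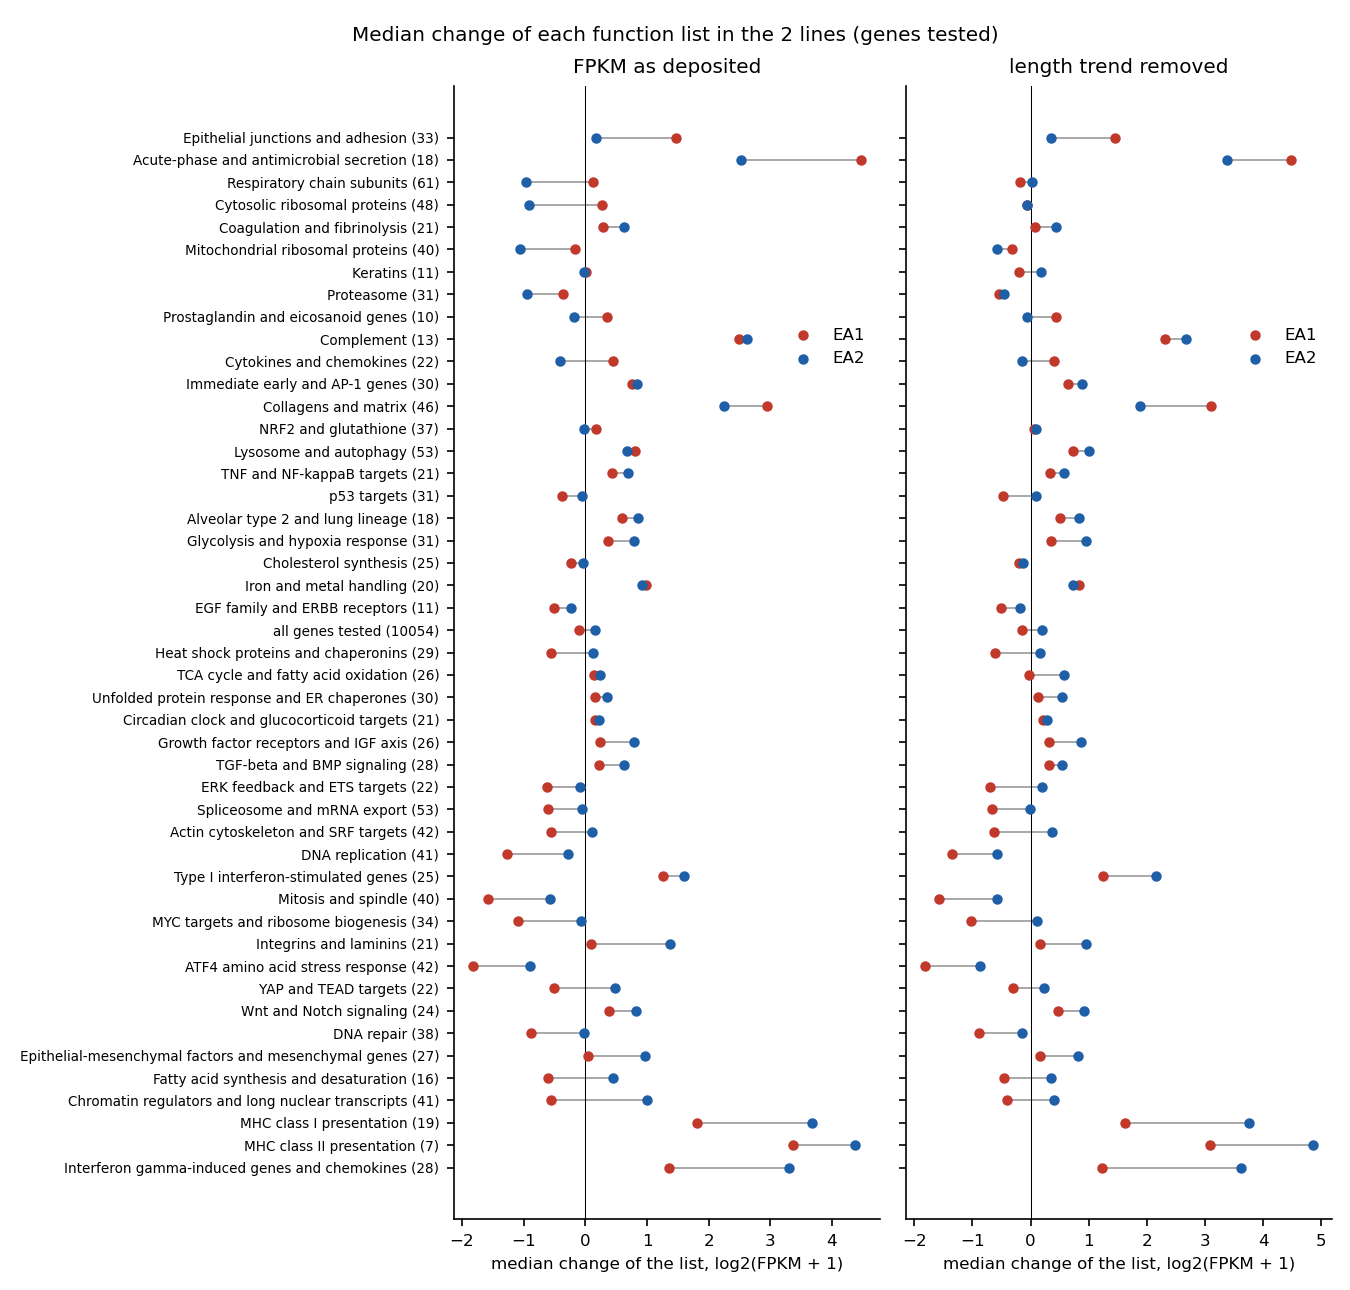
Median change in vivo minus in vitro on log2(FPKM + 1) of each function list in EA1 and EA2, for the FPKM as deposited and with the length trend removed. The chromatin regulators lay at −0.55 and 1.00 as deposited and at −0.41 and 0.40 with the trend removed, whereas the cytosolic ribosomal proteins moved from 0.27 and −0.91 to −0.06 in both lines.

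Members of the fatty acid synthesis and cytoskeleton lists were among the genes that fell in EA1 and rose in EA2. Of 25 cholesterol synthesis genes, none moved oppositely, against 2.78% and 9.58% of all genes in the 2 directions. Of 16 genes of fatty acid synthesis and desaturation, 9 fell and none rose in EA1, against 32.7% and 22.8% of all genes. In EA2, 8 rose and none fell, against 39.6% and 30.0%. The 5 that moved oppositely, against 9.58% of all genes, were the acetyl-CoA carboxylase Acaca, Fasn, Scd2, Gpam and Srebf1. The medians were −0.60 and 0.45, and the EA2 median was −0.07 with EA2 culture 2 alone, where 2 genes moved oppositely. Acaca was 20.6, 17.7, 13.5, 15.6 and 15.4 FPKM in EA1 cultures and 7.61, 6.96, 6.495, 10.3 and 6.70 FPKM in EA1 tumors, and 1.11, 4.03 and 1.42 FPKM in EA2 cultures and 6.87, 5.88, 6.67, 4.94 and 5.24 FPKM in EA2 tumors. The groups were separate in both lines, and its EA2 change was 0.45 with culture 2 alone (adjusted p = 0.113). Of 42 actin cytoskeleton and SRF target genes, 27 fell and 5 rose in EA1, and 16 rose and 8 fell in EA2, where the share that rose was near the 39.6% of all genes. Of these, 12 fell in EA1 and rose in EA2, against 9.58% of all genes, including the filamin Flna, Actn1, Zyx and Msn, with 2 members, Myh9 among them, called in all 4 fits. The EA2 median of this list was 0.10 as deposited and −0.07 under median-of-ratios scaling, and 3 genes moved oppositely with EA2 culture 2 alone. Of 22 YAP and TEAD targets, 6 fell in EA1 and rose in EA2, against 9.58% of all genes, and none of them in all 4 fits. With the length trend removed 2 of the targets did so, against 7.71% of all genes. Ddah1, a target that degrades methylated arginine, rose in EA1 and fell in EA2 as deposited. Ddah1 was 6.80–9.74 FPKM in EA1 cultures, 13.7–40.7 FPKM in EA1 tumors, 0.766–1.36 FPKM in EA2 cultures and 0.0636–0.505 FPKM in EA2 tumors, and its opposite call was lost with EA2 culture 2 alone and without EA2 culture 3.

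Opposite calls were made for 2 of 21 coagulation genes, 3 of 31 genes of glycolysis and hypoxia and 5 of 37 NRF2 and glutathione genes, against 2.78% and 9.58% of all genes in the 2 directions. The 2 coagulation genes were F2r and F2rl1, both of which fell in EA1 and rose in EA2. F2r, the thrombin receptor PAR1, was 274, 276, 302, 259 and 274 FPKM in EA1 cultures and 31.4, 39.8, 56.8, 49.2 and 43.7 FPKM in EA1 tumors. For EA2 the values were 88.9, 187 and 118 FPKM in culture and 182, 151, 246, 235 and 179.7 FPKM in tumors. The EA1 groups were separate and the EA2 groups overlapped through culture 2, and the difference was −3.28 ± 0.29 (limma, adjusted p = 1.63e-07). Its EA2 change of 0.64 ± 0.22 was 0.07 with culture 2 alone (adjusted p = 0.864) and 0.41 under median-of-ratios scaling (adjusted p = 0.0605), and its opposite call was kept in 24 of 29 alternatives and lost, among others, without EA2 culture 1. F2rl1, the related receptor PAR2, changed by −2.13 ± 0.34 and 0.99 ± 0.39, with an EA2 change of −0.23 with culture 2 alone (adjusted p = 0.726) and the opposite call kept in 19 of 29 alternatives and lost on leaving out any 1 of 5 EA2 libraries. Bnip3 and Higd1a, hypoxia-induced mitochondrial proteins, rose by 1.17 ± 0.39 and 0.60 ± 0.22 in EA1 and changed by −1.46 ± 0.45 and −1.34 ± 0.25 in EA2, whereas Hk2, the hexokinase of the same list, changed by −0.84 ± 0.19 and 1.06 ± 0.22. With EA2 culture 2 alone none of their EA2 changes passed the test, at −0.28 for Bnip3 (adjusted p = 0.727), −0.58 for Higd1a (adjusted p = 0.114) and 0.43 for Hk2 (adjusted p = 0.208). The opposite call of Bnip3 was also lost without EA2 culture 1, and that of Higd1a without any 1 of EA1 cultures 1 and 2 and EA1 tumors 2 and 3. Gsta4, a glutathione transferase of lipid peroxidation products, was 57.7, 47.7, 39.0, 55.1 and 60.9 FPKM in EA1 cultures and 344, 439.7, 378, 86.5 and 268 FPKM in EA1 tumors. EA2 cultures had 107, 60.7 and 194 FPKM and EA2 tumors 36.4, 35.3, 72.6, 57.2 and 33.8 FPKM, with 1 tumor above culture 2. Its EA2 change of −1.25 ± 0.43 was −0.27 with the length trend removed (adjusted p = 0.556) and −0.43 with culture 2 alone (adjusted p = 0.597), and the opposite call was lost without EA2 culture 3. Gpx1, glutathione peroxidase, went from 188–241 to 322–493.1 FPKM in EA1 and from 308–1019.6 to 234–282 FPKM in EA2, and its EA2 change with culture 2 alone was −0.28 (adjusted p = 0.232).

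The largest differences between the lines were found in genes that did not move oppositely. Reg3b, a secreted antimicrobial lectin of the acute-phase response, was 16.5, 13.2, 8.40, 5.49 and 8.84 FPKM in EA1 cultures and 8207, 8184, 5802, 1040.0 and 5089 FPKM in EA1 tumors, and it was listed at 0 in all EA2 libraries. Its change in EA1 was 8.73 ± 0.41. Reg3g was 373–2664 FPKM in EA1 tumors and at most 2.79 FPKM in any EA2 library, and Reg1 was 60.1–523 FPKM in EA1 tumors and listed at 0 in EA2. Tff2, a trefoil peptide of mucous epithelium, was 28.4–488 FPKM in EA1 tumors, under 0.63 FPKM in EA1 cultures and at most 0.262 FPKM in EA2. EA1 tumor 4 was the lowest tumor for all 4 genes. Acute-phase and antimicrobial genes as a list rose in both lines, 17 of 18 in EA1 and 12 of 18 in EA2 with 1 that fell, with medians of 4.47 and 2.53.

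The matrix genes Has1 and Col6a1 and most interferon gamma-induced genes had larger changes in EA2, while of the 46 collagen and matrix genes tested the change was higher in EA1 for 16 and in EA2 for 16. Has1, a hyaluronan synthase, was at the 0.01 FPKM floor of the EA1 table in every EA1 culture and 0.131, 0.236, 0.0822, 0.229 and 0.471 FPKM in EA1 tumors. EA2 cultures had 0.0751, 0.0451 and 0.160 FPKM and EA2 tumors 43.9, 20.4, 17.4, 16.8 and 28.9 FPKM. The rise in EA2 was 4.50 ± 0.25 and the change in EA1 was 0.28 ± 0.21, which did not pass the test (limma, adjusted p = 0.286). Col6a1, a chain of microfibrillar collagen VI, was 49.1, 53.04, 64.2, 32.5 and 45.9 FPKM in EA1 cultures and 158, 148, 117, 349 and 199 FPKM in EA1 tumors. The EA2 libraries held 1.67, 1.08 and 4.98 FPKM in culture and 177, 144, 185, 512 and 309.5 FPKM in tumors. Tumors were above cultures in every library of both lines, and the rise was larger in EA2 by −4.32 ± 0.53 as EA1 minus EA2 (limma, adjusted p = 4.36e-06).

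H2-K1, a classical MHC class I heavy chain whose reads can be shared with close paralogs, was 27.0, 33.3, 41.3, 42.0 and 44.3 FPKM in EA1 cultures and 124, 123, 120, 188 and 108 FPKM in EA1 tumors. EA2 cultures had 6.39, 5.62 and 2.55 FPKM and EA2 tumors 411, 664, 236, 172 and 418 FPKM. It rose in both lines, and the difference in change was −4.15 ± 0.45 (limma, adjusted p = 1.25e-06). Gbp2, a guanylate-binding protein of cell-autonomous immunity, rose from 0.147–0.311 to 3.84–23.9 FPKM in EA1 and from 1.24–1.61 to 106–254 FPKM in EA2. Of 28 interferon gamma-induced genes, 22 rose and none fell in EA1, and 24 rose and 1 fell in EA2, with medians of 1.35 and 3.30. Over all genes tested, 22.8% rose and 32.7% fell in EA1, and 39.6% rose and 30.0% fell in EA2. Among the 28 genes the change was higher in EA2 for 17 and in EA1 for 3, against 39.0% and 27.6% of all genes. All 7 tested genes of MHC class II presentation rose in both lines, and 5 rose more in EA2, among them Cd74, the invariant chain, with EA1 tumors at 13.8–68.2 FPKM and EA2 tumors at 65.2–283 FPKM. Of 19 MHC class I presentation genes, 18 rose in EA1 and 17 in EA2, and the medians were 1.81 and 3.68.

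Epithelial and mesenchymal genes changed unequally. Over all genes tested, 22.8% rose and 32.7% fell in EA1, and 39.6% rose and 30.0% fell in EA2. Of 33 epithelial junction and adhesion genes, 22 rose and 5 fell in EA1, while 10 rose and 3 fell in EA2, with medians of 1.48 and 0.18. The change was higher in EA1 for 18 and in EA2 for 7, against 27.6% and 39.0% of all genes. Epcam, Cdh1 and Krt18 were added after their values were seen. Epcam changed by 5.01 ± 0.33 in EA1 and 0.67 ± 0.38 in EA2. Cdh1, E-cadherin, changed by −0.31 ± 0.37 and 1.22 ± 0.43 (difference −1.535 ± 0.57, limma, adjusted p = 0.0232). Its difference did not pass that test with the length trend removed (−1.29, adjusted p = 0.063) or under median-of-ratios scaling (−1.21, adjusted p = 0.0763). With EA2 culture 2 alone the difference of Cdh1 was −1.78. Krt18 fell in both lines, by −0.99 ± 0.21 and −0.70 ± 0.24. Erbb3, a receptor of neuregulins rather than a junction protein, was 0.499, 0.532, 0.727, 0.983 and 0.802 FPKM in EA1 cultures and 32.7, 41.3, 30.1, 8.95 and 27.5 FPKM in EA1 tumors. It was 0.0308–0.0962 FPKM in EA2 cultures and 0.147–2.74 FPKM in EA2 tumors. Of 27 epithelial-mesenchymal genes, 10 rose and 6 fell in EA1, 18 rose and 3 fell in EA2, and the change was higher in EA2 for 17, against 39.0% of all genes. Fn1, fibronectin, was 532–852 FPKM in EA1 cultures, 1487–2398 FPKM in EA1 tumors, 144–336 FPKM in EA2 cultures and 2226–3057 FPKM in EA2 tumors. Jag1, a Notch ligand, was 63.8, 81.4, 114, 102 and 102 FPKM in EA1 cultures and 8.29, 21.3, 19.8, 11.7 and 17.1 FPKM in EA1 tumors. EA2 cultures had 4.44, 4.54 and 9.95 FPKM and EA2 tumors 14.4, 5.71, 16.9, 48.1 and 19.2 FPKM, with tumor 2 below culture 3, and the difference was −3.91 ± 0.58 (limma, adjusted p = 2.38e-05). Its opposite call was kept in 24 of 29 alternatives and was lost without EA2 culture 1.

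No difference in response was called for the driver transcripts. Alk was 7.01, 8.87, 10.0, 9.45 and 8.79 FPKM in EA1 cultures, 14.3, 16.2, 16.4, 9.61 and 14.5 FPKM in EA1 tumors, 5.63, 17.0 and 6.35 FPKM in EA2 cultures and 23.3, 22.8, 20.02, 18.6 and 21.5 FPKM in EA2 tumors, and the difference in change of −0.59 ± 0.32 did not pass the test (limma, adjusted p = 0.107). For Eml4 the difference was −0.61 ± 0.35 (adjusted p = 0.132). Trp53 was 129.5, 126, 125, 134 and 128 FPKM in EA1 cultures and 76.6, 82.3, 85.5, 55.5 and 78.5 FPKM in EA1 tumors. It was 45.9, 31.5 and 40.4 FPKM in EA2 cultures and 14.9, 17.6, 16.9, 17.4 and 11.6 FPKM in EA2 tumors, so transcript was present in the line described as p53 null, and a gene-level value does not show whether it encodes protein. Both lines fell, with a difference of 0.50 ± 0.21 (limma, adjusted p = 0.044).

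In both lines, summed markers of fibroblasts, endothelium, neutrophils, B and plasma cells, and club and ciliated cells were higher in tumors than in cultures. Their part in the results above was not tested. The 19 fibroblast markers summed to 1989 to 6003 FPKM in EA1 tumors and 2694 to 3705 FPKM in EA2 tumors, against 665 to 1014 FPKM and 195 to 453 FPKM in culture. Fn1, which the cultures also expressed, had the highest mean of the list, at 1794 FPKM in EA1 tumors and 2469 FPKM in EA2 tumors. Col1a1 and Col3a1 averaged 234 and 394 FPKM in EA1 tumors and 25.8 and 12.4 FPKM in EA2 tumors. The club and ciliated cell markers summed to 262 to 986 FPKM in EA1 tumors and 16.6 to 178 FPKM in EA2 tumors, with Scgb1a1 at 232–887 FPKM and 10.3–152 FPKM. Endothelial markers summed to 84.4 to 148.5 FPKM in EA1 tumors and 36.1 to 47.4 FPKM in EA1 cultures. In EA2 the sums were 12.2 to 63.8 FPKM and 6.58 to 8.99 FPKM. Neutrophil markers summed to 15.6 to 59.1 FPKM in EA1 tumors and 2.79 to 7.88 FPKM in EA2 tumors, and at most 1.47 FPKM in cultures. Smooth muscle and pericyte markers were higher in tumors in EA1 only, at 27.6 to 153 FPKM against 8.82 to 12.4 FPKM. The 22 macrophage and monocyte markers summed to 174 to 406 FPKM in EA1 tumors and 42.0 to 214 FPKM in EA2 tumors, against 54.0 to 68.8 FPKM in EA1 cultures and 50.1 to 71.6 FPKM in EA2 cultures, which the EA2 tumors overlapped. No T and NK cell, B cell or erythroid marker reached a mean of 5 FPKM in any group, and the leukocyte marker Ptprc was 0.381–0.712 FPKM in EA1 tumors and 0.0923–0.406 FPKM in EA2 tumors. Sftpc of alveolar type 2 cells averaged 68.7 FPKM in EA1 tumors and 5.705 FPKM in EA2 tumors. The Y-linked Ddx3y was at 0.01 FPKM in every EA1 culture and 0.0893–0.321 FPKM in EA1 tumors, which grew in male hosts. The source of this transcript was not tested. Cd53, a tetraspanin listed among the leukocyte markers, moved oppositely as deposited. It was 4.35, 5.62, 9.54, 5.96 and 6.39 FPKM in EA1 cultures and 81.7, 66.7, 91.3, 36.8 and 82.8 FPKM in EA1 tumors. In EA2 it was 132, 97.6 and 49.3 FPKM in cultures, where no host cells were present, and 31.1, 62.3, 83.4, 16.3 and 1.01 FPKM in tumors, with 2 tumors within the range of the cultures. Its opposite call was kept in 20 of 29 alternatives, and the EA2 change of −1.94 ± 0.79 did not pass the test with the length trend removed (−1.496, adjusted p = 0.103) or with culture 2 alone (−2.12, adjusted p = 0.181). The call was also lost without EA2 culture 1, culture 2 or tumor 4. Among the EA1 tumors, number 4 was the highest for Col3a1 at 1001 FPKM, chosen after its values were seen, and the lowest for Atp1b1, Cyp3a13, Mmp13 and Mal2. Among the EA2 tumors, number 5 was the lowest for Il33, Mmp13, Mal2 and Cxcl5.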

How the data were processed

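RNA was sequenced from 18 libraries with a stranded poly(A) mRNA kit. The authors aligned the reads to the mouse genome mm10 with STAR and deposited FPKM per gene, estimated with Cufflinks 2.0.2 per the labels, in a separate table for each line. The lowest value was 0.01 FPKM in the EA1 table and 0 in the EA2 table. Of 24341 EA1 entries, 6 held a status word in place of a value, and of 24347 EA2 entries, 27 had names turned into dates, and these were left out. FPKM retain no depth, so no counting interval can be given.

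Values were transformed to log2(FPKM + 1). Genes that reached a group mean of 5 FPKM at least once were fitted with 4 group means in limma 3.58.1 (R 4.3.3, empirical Bayes with trend, two-sided). The contrasts were in vivo minus in vitro in each line and the change in EA1 minus that in EA2, with Benjamini-Hochberg adjustment over the 10054 genes and a threshold of 0.05. Errors of changes are SE of the fit. Tables were handled with Python 3.11.15, numpy 2.4.6 and pandas 2.3.3. Scripts were tested on simulated data. Transcript lengths are those of the longest GENCODE transcript of each gene. Promoters and coordinates are those of RefSeq on GRCm38.p6, the assembly also called mm10.

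Alternatives were a pseudocount of 0.1, a filter of 20 FPKM, a filter met in both lines, no filter, median-of-ratios scaling, quantile normalization, removal of each library's trend on transcript length (loess, span 0.3), group weights, robust empirical Bayes, a replicate block, EA2 in vitro library 2 alone and each library left out. The agreement of 4 fits was added after the data were seen. Named genes were the first 12 in each direction by the smaller change among opposite genes without overlap, the 5 largest differences in each direction, up to 3 opposite genes of each function list (or up to 2 with the largest difference where there were none), Alk, Eml4, Trp53 and the most abundant marker of each cell type list. The members, lists and tests were chosen with earlier results of these data known. Some genes that fit these rules are not reported here.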

Additional observations from a re-analysis of the deposited data

Results flagged for a closer look

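The difference between the change in EA1 and the change in EA2 was called by the test of the difference itself (limma on log2(FPKM + 1), adjusted p under 0.05) for 33 of the genes reported, and the values are given as EA1 minus EA2. For genes that rose in EA1 and fell in EA2 without overlap of the libraries, it was 5.22 for Atp1b1, 5.13 for Cxcl1, 4.80 for Mal2, 4.57 for Cyp3a13, 3.76 for Cxcl3 and 3.72 for Cdc42ep3. It was 3.65 for Serpind1, 2.92 for 1700012B09Rik, 2.63 for Trim15, 2.32 for Shroom3, 2.28 for Gpx1 and 2.26 for Slc31a2. 1700012B09Rik, whose function is not given here, was 0.315–4.05 FPKM in EA1 tumors and 96.8–178 FPKM in EA2 cultures, and its opposite call was lost with the length trend removed.

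For genes that fell in EA1 and rose in EA2, the difference was −3.79 for Fscn1, −3.03 for Adnp, −3.01 for Neo1, −2.84 for Cad, −2.78 for Larp1 and −2.77 for Apcdd1. It was −2.66 for Prrc2c, −2.57 for Cdk5rap2, −2.45 for Mpdz, −2.38 for Ascc3 and −2.33 for Kpnb1. Neo1, a receptor of netrins, was 11.6, 39.6 and 15.3 FPKM in EA2 cultures and 45.5–55.5 FPKM in EA2 tumors, and its change in EA2 was 0.37 with culture 2 alone (adjusted p = 0.39). Kpnb1, the nuclear import receptor importin beta 1, was 36.2, 114 and 40.4 FPKM in EA2 cultures and 119–144 FPKM in EA2 tumors, and its change in EA2 was 0.17 with culture 2 alone (adjusted p = 0.259).

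The differences of largest size were 9.22 for Snord49a, 8.73 for Reg3b, 7.91 for Reg3g, 7.40 for Reg1 and 6.91 for Tff2 upward, and −8.48 for Eef1a1, −4.32 for Col6a1, −4.26 for Snora70, −4.23 for Has1 and −4.15 for H2-K1 downward. Snord49a, a small nucleolar RNA of 72 bases, was at the 0.01 FPKM floor in every EA1 library, 331, 1115 and 571 FPKM in EA2 cultures and listed at 0 in every EA2 tumor. Eef1a1, a translation elongation factor that every cell uses, was listed at 0 in EA2 cultures 1 and 2 and was 8183, 11086, 10218, 8530.5 and 9220.0 FPKM in EA2 tumors, and EA2 culture 3 held 11336 FPKM. Snora70, of 137 bases, was 22.5–50.9 FPKM in EA1 cultures and 21.3, 0 and 3.56 FPKM in EA2 cultures. No change between conditions is read from these 3 entries.

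In 85 combinations of a gene with a group, 9 held a single library far from the others of its group, where chance alone gives about 1 in 20. These were 15.9 FPKM for Cdc42ep3, 95.9 FPKM for Fscn1, 188 FPKM for H2-K1 and 30.9 FPKM for Neo1, all in EA1 tumor 4, as well as 114 FPKM for Cxcl1 and 11.2 FPKM for Snora70 in EA1 tumor 5. The others were 7909.9 FPKM for Eef1a1 in EA1 tumor 3, 33.4 FPKM for Prrc2c in EA1 culture 2 and 23.6 FPKM for Snora70 in EA2 tumor 2.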

How the results depend on the processing

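The genes with a larger change in EA1, counted with sign, were 2771, and their number was 4377 with no filter on low values and 2531 to 2983 without each library in turn. The genes with a larger change in EA2 were 3924, and their number was 2297 with EA2 in vitro library 2 alone, 2183 with a 20 FPKM filter and 3329 to 4551 without each library. The genes that rose in EA1 and fell in EA2, 280, were 157 with the length trend removed, 457 under median-of-ratios scaling, 50 in all 4 fits and 224 to 523 without each library. The genes that fell in EA1 and rose in EA2, 963, were 509 with library 2 alone, 564 with the 20 FPKM filter, 242 in all 4 fits and 760 to 1690 without each library. Changes beyond 1 in both lines, 34 rising in EA1, were 13 with library 2 alone, 20 with the 20 FPKM filter, 18 with the filter in both lines, 9 with group weights, 21 with the length trend removed, 53 under median-of-ratios scaling and 64 with a pseudocount of 0.1. The 31 falling in EA1 became 13 with library 2 alone, 20 with the length trend removed, 11 under median-of-ratios scaling and 53 with a pseudocount of 0.1. Without each library these were 23 to 50 and 16 to 79. The highest values (523, 1690 and 79 among them) came without EA2 in vitro replicate 2 and the 16 without EA2 in vitro replicate 1, and the cause was not tested. Quantile normalization, robust empirical Bayes and the remaining settings moved the counts of opposite genes by less than 1.5 times.

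Same-numbered libraries showed no shared deviation, since their correlations were −0.108 to 0.067 and 1 of 8 pairs was its library's highest. These correlations cannot show whether cultures and tumors were paired by experiment. With a replicate block the counts were 2614 genes with a larger change in EA1, 3789 genes with a larger change in EA2, 244 and 802 opposite genes, and 32 and 34 beyond 1.

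Of 134 named genes tested, 131 passed the test of the difference. Direction reversed for Alk (0.32) and Eml4 (0.42) with library 2 alone, for Mrpl52 (−0.088) and Rps21 (−0.29) with the length trend removed, and for Aqp5, whose difference was −0.02, with library 2 alone (0.32), under median-of-ratios scaling (0.33), with the replicate block (0.088) and without 6 of the 18 libraries in turn (0.01 to 0.43, and −0.29 to −0.00 without the others). Over all settings, 3761 values kept direction and side of the threshold, 57 no longer passed and 2 newly passed. Sequencing depth is unknown from FPKM, so the precision of low values cannot be stated, and a pseudocount of 1 understates changes of low genes.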

Other observations

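Further function lists changed mostly in 1 direction. Of 53 lysosome and autophagy genes, 41 rose in EA1, and 33 rose and 7 fell in EA2, with medians of 0.80 and 0.68. Of 42 genes of the ATF4 amino acid stress response, 36 fell in EA1 and 27 fell in EA2, with medians of −1.82 and −0.90, and the change was higher in EA2 for 22 and in EA1 for 3. With EA2 culture 2 alone the last counts were 6 and 2. Of 46 collagen and matrix genes, 35 rose in EA1 and 34 in EA2, and the change was higher in EA1 for 16 and in EA2 for 16. Mt2, a metallothionein that binds zinc and copper, rose from 109–165 to 709–1563 FPKM in EA1 and from 1.88–46.0 to 384–1337 FPKM in EA2. Pla2g4a, the cytosolic phospholipase that releases arachidonic acid, fell from 55.5, 62.5 and 69.3 FPKM in EA2 cultures to 6.80, 5.92, 11.52, 10.8 and 3.37 FPKM in EA2 tumors, without overlap, and its change in EA1 of −0.49 ± 0.21 did not pass the test (limma, adjusted p = 0.0608).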
